A study of Mus musculus with 6 samples.

Results

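The genes described here are 7 genes of the male germ line, the RNA-binding protein genes Ddx4, Dazl, Dnd1 and Elavl2 and the testis-expressed genes Tex101, Tex14 and Tex19.1. They were taken by gene symbol from a count table of 51912 mouse genes, and all 7 were found in it under 1 Ensembl identifier each. RNA had been sequenced from testis cells of C57BL/6J mice at postnatal day 4, after Smart-Seq2 amplification, which copies whole transcripts from very little RNA. The cells carried THY1 and lacked c-KIT on their surface, a sorting pattern that enriches spermatogonial stem cells. The libraries fell into 3 from Bud31-vKO mice, in which Cre recombinase deleted Bud31 at loxP sites, and 3 from wild type (WT) mice of the same strain and age. Bud31 encodes a protein of the spliceosome, and the comparison asks what its loss does to RNA levels in these cells. The promoter that drives Cre, the exons deleted, the number of cells in a library and whether the libraries came from separate animals are not given in the labels, so p-values measure only the spread between these libraries, which may be technical. The table names its columns by the letters C and T, read here as wild type and Bud31-vKO, although no label explains the letters.

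Germ cells run much of their gene expression through RNA-binding proteins, which store messages, promote their translation or lead to their decay. DDX4, the mouse vasa homologue, is an RNA helicase of the germ granules where the piRNA pathway works. DAZL binds messages and promotes their translation, and germ cells without it fail to develop. DND1 works with NANOS2 and the CCR4-NOT deadenylase, and its loss causes germ cell death in mice and, in some strains, testicular teratomas. ELAVL2 is a Hu-family protein that binds AU-rich RNA, best known in neurons and also made in germ cells. Among the TEX proteins, TEX101 is a lipid-anchored surface protein of germ cells that sperm need for fertility, TEX14 keeps open the intercellular bridges between dividing germ cells, and TEX19.1 restrains retrotransposons and binds the ubiquitin ligase UBR2.

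Promoters of several of these genes, Dazl, Ddx4 and Tex19.1 among them, are silenced by DNA methylation at CG dinucleotides in somatic cells of the mouse. RefSeq promoter windows on GRCm38.p6 were matched for 6 of the 7 genes, all but Dnd1. Over 32851 windows of 250 bases before a start site, the median number of CG dinucleotides was 6 and the upper quartile 16. The window of Ddx4 held 31, more than 94.8% of all windows, and that of Dazl held 20, more than 82.1%. Tex14 had 17, Tex19.1 had 15, Tex101 had 14, and the 6 start sites of Elavl2 had 10 to 21. Tex19.2, the neighbour and near relative of Tex19.1, had 2. The windows of Dazl, Tex101 and both Tex19 genes follow 5′ to 3′, with each CG in capitals, because they display this contrast; that of Dazl stops at 234 bases, where an annotated exon begins.
Dazl (chr17:50293637-50293870, - strand): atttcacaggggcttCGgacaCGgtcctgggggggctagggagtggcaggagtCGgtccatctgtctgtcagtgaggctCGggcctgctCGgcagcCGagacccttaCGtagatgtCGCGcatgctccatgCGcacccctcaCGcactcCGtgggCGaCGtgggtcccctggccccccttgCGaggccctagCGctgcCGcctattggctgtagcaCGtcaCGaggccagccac
Tex101 (chr7:24672051-24672300, - strand): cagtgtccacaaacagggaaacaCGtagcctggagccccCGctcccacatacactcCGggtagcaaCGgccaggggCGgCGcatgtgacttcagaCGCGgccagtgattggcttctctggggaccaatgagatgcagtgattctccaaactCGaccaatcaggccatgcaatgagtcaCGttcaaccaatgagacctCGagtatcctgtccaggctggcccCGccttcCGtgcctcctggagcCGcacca
Tex19.1 (chr11:121145893-121146142, + strand): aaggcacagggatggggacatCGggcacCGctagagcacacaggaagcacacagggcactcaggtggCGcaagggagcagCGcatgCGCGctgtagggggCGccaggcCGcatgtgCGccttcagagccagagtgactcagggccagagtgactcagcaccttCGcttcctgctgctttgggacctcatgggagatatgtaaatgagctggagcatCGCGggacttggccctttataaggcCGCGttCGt
Tex19.2 (chr11:121118678-121118927, - strand): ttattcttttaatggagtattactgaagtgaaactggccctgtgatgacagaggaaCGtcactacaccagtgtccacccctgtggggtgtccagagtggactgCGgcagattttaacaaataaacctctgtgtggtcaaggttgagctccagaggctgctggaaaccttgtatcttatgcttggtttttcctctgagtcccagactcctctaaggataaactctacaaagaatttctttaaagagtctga
An E-box, CACGTG, was found in the window of Ddx4 and in no window of the other 5 genes, against 6.02% of all windows. The sequence TTCCCGC, searched on both strands like the E-box and not overlapping it, was found for Ddx4 and Tex14, against 3.82% of all windows. Of the Ddx4 window, 165 bases lie in an exon of Ddx4 itself by the GENCODE annotation, and 140 bases of the Tex14 window lie in an exon of Rad51c.

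The libraries held 13240704 to 14507038 reads in Bud31-vKO and 13577015 to 18744466 reads in WT. They were unequal in the number of genes with reads, 12464 to 20286 in Bud31-vKO and 13762 to 22300 in WT, with Bud31-vKO library 2 and WT library 3 the lowest. Bud31 itself measured 47.2, 67.6 and 80.4 CPM (a read count relative to the TMM-scaled library size) in Bud31-vKO libraries 1 to 3, against 138, 96.8 and 158 CPM in WT libraries 1 to 3, so every Bud31-vKO library lay below every WT library. Its log2 fold change was -1.01. By edgeR p was 0.0345 before adjustment and 0.9997 after it, so the deleted gene itself was not called. Of its exons, 244 bases overlap Ptcd1 on the opposite strand, and reads there could belong to either gene. Of the sort markers, Thy1 measured 11.8, 7.28 and 30.2 CPM in Bud31-vKO libraries 1 to 3 and 13.2, 10.5 and 16.2 CPM in WT libraries 1 to 3. Kit RNA, from the gene of the surface protein sorted against, had 329, 7 and 189 reads in Bud31-vKO libraries 1 to 3 and 396, 1140 and 6 reads in WT libraries 1 to 3. Over 15240 genes tested, the edgeR quasi-likelihood test, adjusted by Benjamini-Hochberg, called 0 genes lower and 0 higher in Bud31-vKO, a background of 0% in each direction. At an unadjusted p under 0.05 there were 278 lower genes (1.82%) and 165 higher ones (1.08%), DESeq2 called 30 lower (0.197%) and 17 higher (0.112%), and limma-voom called 0. Somatic RNA was present in every library: the 5 stromal markers Pdgfra, Col1a1, Col3a1, Dcn and Lum summed to 6530 to 11600 CPM in Bud31-vKO and 8640 to 17400 CPM in WT, above the 7 germ line genes.

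All 7 genes had lower mean TMM-scaled levels in Bud31-vKO than in WT, and no single difference passed the test over all genes. Scaling to other germ cell genes, chosen after seeing the data, moved the median of all genes to 0.87 with 18.3% of them below 0. On it 3 of the 7 were below 0, and relative to that median the 7 lay at -2.21 to -0.45. Subtracting the median takes off most of the shift, so this range comes back near the main fit and is no separate check. All 7 passed the filter on low counts. Their median log2 fold change was -0.82, beside 0.02 over all genes tested, and 7 of 7 were below 0, beside 48.9% of all genes tested. The 7 genes were chosen with earlier results of these data known, so these figures are descriptions without a test. Summed over the 7 genes, the level was 1580, 1910 and 2110 CPM in Bud31-vKO libraries 1 to 3, against 3310, 3020 and 2390 CPM in WT libraries 1 to 3, with no overlap. Dazl and Ddx4 make up most of this sum. For 2 of the 7 genes, Ddx4 and Elavl2, every Bud31-vKO library lay below every WT library, where 6.39% of all tested genes showed that pattern, and for 0 of 7 did every Bud31-vKO library lie above, where 4.76% did. By edgeR 0 of the 7 were called. In these sorted samples, fewer germ cells and less RNA per germ cell cannot be told apart.

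**Figure D1:**
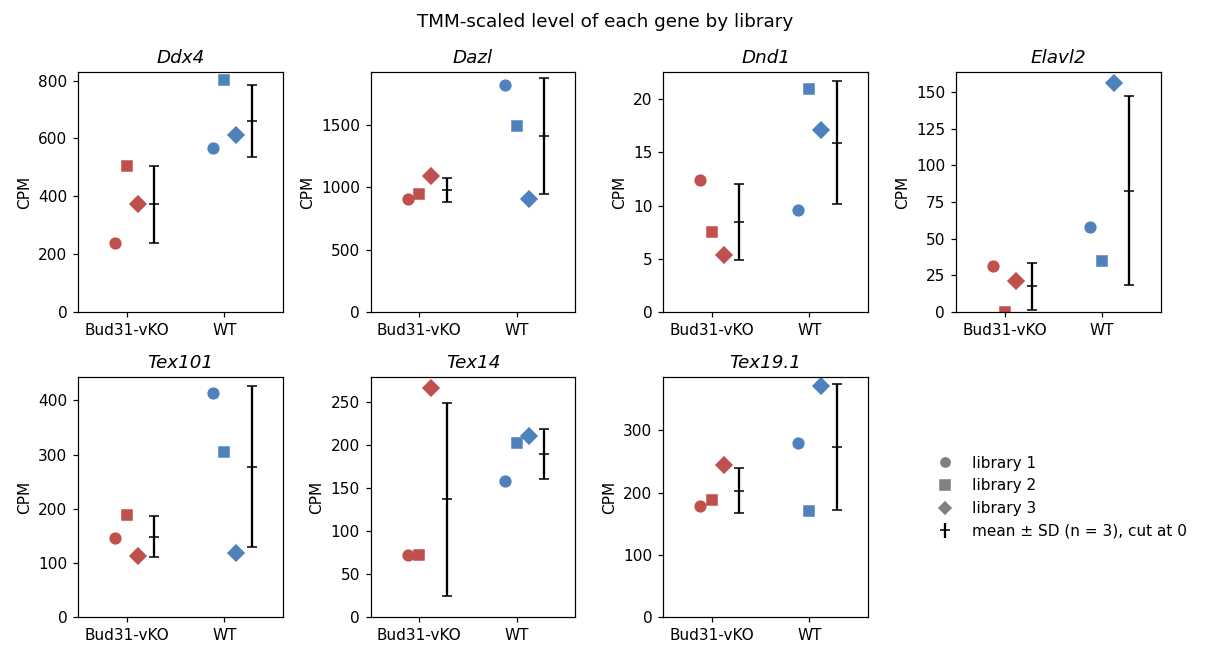
Level of each gene in TMM-scaled CPM, on axes from 0, in the 3 Bud31-vKO libraries (red) and the 3 WT libraries (blue), with the mean and SD of each group beside the points. Ddx4 and Elavl2 are the genes whose groups do not overlap, and Bud31-vKO library 3 stands above every WT library for Tex14.

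Ddx4, the germ granule helicase (ENSMUSG00000021758, chromosome 13 from 112598333 to 112652475 on the minus strand of GRCm38), was lower in every Bud31-vKO library than in any WT library. It measured 239, 506 and 375 CPM in Bud31-vKO libraries 1 to 3, against 568, 802 and 613 CPM in WT libraries 1 to 3. The highest Bud31-vKO library, library 2, thus stayed under the lowest WT library, library 1. Group levels were 373 ± 133 CPM in Bud31-vKO and 661 ± 124 CPM in WT (SD, n = 3 each), a 1.77-fold lower level in Bud31-vKO. On the log2 scale the difference was -0.82 (standard error 0.34, 95% interval -1.62 to -0.03); by edgeR p was 0.0445 before adjustment and 0.9997 after it. DESeq2 gave -0.77 with an unadjusted p of 0.0492 and an adjusted p of 0.987. At least 3270 reads lay behind each of the values, so the counting error of reads is small beside the spread between libraries. Error from the amplification before sequencing was not measured.

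Dazl (ENSMUSG00000010592, chromosome 17 from 50279395 to 50293636, minus strand), which promotes translation of germ cell messages, was the most abundant of the 7 in every library. Its level was 906, 944 and 1090 CPM in Bud31-vKO libraries 1 to 3, against 1820, 1490 and 907 CPM in WT libraries 1 to 3. The Bud31-vKO libraries were close together, with a coefficient of variation of 9.67%, while the WT libraries spread over 33.0%, and WT library 3 fell inside the Bud31-vKO range. Means were 979 ± 94.6 CPM in Bud31-vKO and 1410 ± 464 CPM in WT (SD, n = 3 each). The log2 fold change of -0.52 (95% interval -1.26 to 0.21) did not pass by edgeR, with an adjusted p of 0.9997, and it was -0.29 without WT library 1.

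Dnd1 (ENSMUSG00000044595, chromosome 18 from 36763671 to 36766214, minus strand), the partner of NANOS2, had few reads, 73 to 169 in Bud31-vKO and 131 to 379 in WT. These gave 12.4, 7.56 and 5.40 CPM in Bud31-vKO libraries 1 to 3, against 9.55, 20.9 and 17.1 CPM in WT libraries 1 to 3. Bud31-vKO library 1 lay above WT library 1, and the other libraries separated by genotype. The 95% counting interval, which covers counting error only, was 4.23 to 6.79 CPM in Bud31-vKO library 3, the lowest, and 18.9 to 23.2 CPM in WT library 2, the highest. By edgeR the log2 fold change was -0.91 with a wide 95% interval of -3.46 to 1.64 and an adjusted p of 0.9997. Of its exons, 140 bases overlap Wdr55 on the opposite strand, and reads there could belong to either gene, since the strand setting of the counting is not given.

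Elavl2 (ENSMUSG00000008489, chromosome 4 from 91250763 to 91400785, minus strand), the Hu-family protein gene, had the largest fold change of the 7 with all 6 libraries and the widest interval. It measured 31.2, 0 and 21.3 CPM in Bud31-vKO libraries 1 to 3, against 57.8, 34.7 and 156 CPM in WT libraries 1 to 3. The groups did not overlap, yet Bud31-vKO library 1 and WT library 2 were near each other, with 95% counting intervals of 28.3 to 34.3 CPM and 32.0 to 37.5 CPM that overlapped. Bud31-vKO library 2 had no read, which allows up to 0.214 CPM by a limit of 3 reads that covers counting error only. There, 128 of the 4975 genes with at least 20 CPM in each of the other 5 libraries likewise had no read. In WT library 3 that count was 36 of 4783, and in each of the other 4 libraries it was 0 or 1. Means were 17.5 ± 15.9 CPM in Bud31-vKO and 82.9 ± 64.5 CPM in WT (SD, n = 3 each), and the log2 fold change was -2.24 (standard error 1.58, adjusted p = 0.9997 by edgeR). It was -1.39 without WT library 3. Over Bud31-vKO libraries 1 and 3 and WT libraries 1 and 2, which detected the most genes, it was -0.81. In those libraries Tex101 (-1.45) and Ddx4 (-1.15) lay farther below 0 than Elavl2.

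Tex101 (ENSMUSG00000062773, chromosome 7 from 24668007 to 24676675, minus strand), the surface protein gene, had the same order of the WT libraries as Dazl and another order of the Bud31-vKO libraries. Its level was 146, 188 and 114 CPM in Bud31-vKO libraries 1 to 3, against 413, 304 and 118 CPM in WT libraries 1 to 3. WT library 3 was again inside the Bud31-vKO range, and WT libraries 1 and 2 were above all Bud31-vKO libraries. Means were 149 ± 37.5 CPM in Bud31-vKO and 278 ± 149 CPM in WT (SD, n = 3 each), or -0.90 on the log2 scale with a 95% interval of -2.00 to 0.21. By edgeR p was 0.0980 before adjustment and 0.9997 after it. Without WT library 3 the log2 fold change was -1.24, and without WT library 1 it was -0.50.

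Tex14 (ENSMUSG00000010342, chromosome 11 from 87405065 to 87555823, plus strand), the bridge protein gene, was split within the Bud31-vKO group. It measured 72.1, 72.3 and 267 CPM in Bud31-vKO libraries 1 to 3, against 158, 203 and 211 CPM in WT libraries 1 to 3. Bud31-vKO libraries 1 and 2 were below all WT libraries and Bud31-vKO library 3 was above all of them. The coefficient of variation was 81.9% in Bud31-vKO and 15.1% in WT; over 2301 genes averaging 100 CPM or more, the median was 32.9% in Bud31-vKO and 29.6% in WT. The log2 fold change was -0.47 (95% interval -1.75 to 0.80, adjusted p = 0.9997 by edgeR), and it was -1.40 without Bud31-vKO library 3, -0.15 without Bud31-vKO library 1 and -0.16 without Bud31-vKO library 2.

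Tex19.1 (ENSMUSG00000039329, chromosome 11 from 121146143 to 121148319, plus strand), the retrotransposon control gene, differed little between the groups beside its spread. Its level was 178, 188 and 245 CPM in Bud31-vKO libraries 1 to 3, against 280, 170 and 371 CPM in WT libraries 1 to 3. WT library 2 was below all Bud31-vKO libraries, while WT libraries 1 and 3 were above all of them. The log2 fold change was -0.43 with a 95% interval of -1.26 to 0.41 (adjusted p = 0.9997 by edgeR), and it was -0.69 without WT library 2 and -0.12 without WT library 3. Its neighbour Tex19.2 measured 102, 79.6 and 65.4 CPM in Bud31-vKO libraries 1 to 3, against 96.6, 56.3 and 199 CPM in WT libraries 1 to 3, a log2 fold change of -0.51. The ratio of Tex19.1 to Tex19.2 in CPM was 1.74, 2.36 and 3.74 in Bud31-vKO libraries 1 to 3 and 2.90, 3.02 and 1.87 in WT libraries 1 to 3, with overlap. Of the 50-base windows of Tex19.1 transcripts, 2.67% occur letter for letter in Tex19.2, so a small part of the reads could be assigned to either gene.

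**Figure D2:**
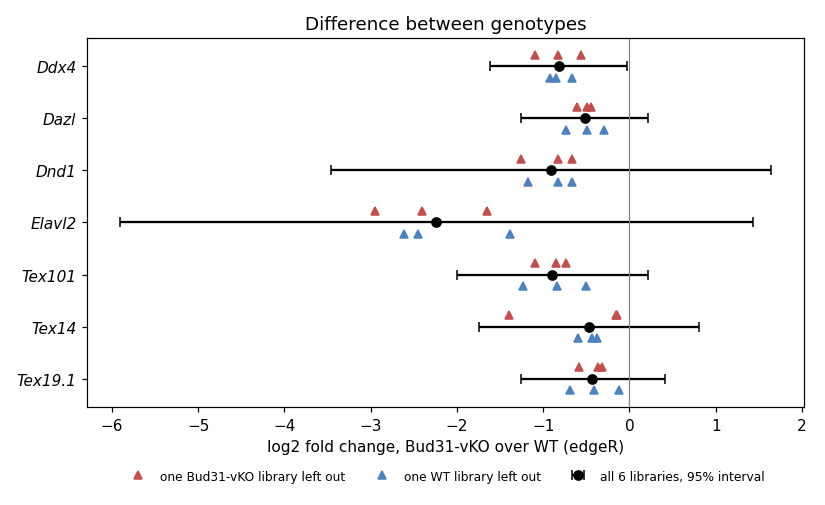
Log2 fold change of each gene, Bud31-vKO over WT, by edgeR with all 6 libraries (black, 95% interval) and with 1 Bud31-vKO library (red) or 1 WT library (blue) left out. All triangles lie below 0, Tex14 moves farthest when Bud31-vKO library 3 is left out (-1.40), and of the intervals that of Ddx4 stays below 0.

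Levels per length could be compared between the genes. Per kb of exon, Dazl averaged 256 ± 24.8 CPM in Bud31-vKO and 368 ± 121 CPM in WT, and Ddx4 124 ± 44.3 CPM in Bud31-vKO and 219 ± 41.1 CPM in WT (SD, n = 3 each). Tex19.1 averaged 109 CPM per kb in Bud31-vKO (at most 131) and 146 in WT (90.7 to 198), and Tex101 90.2 ± 22.6 in Bud31-vKO and 168 ± 90.0 in WT. Tex14 averaged 27.3 ± 22.4 in Bud31-vKO and 38.0 ± 5.72 in WT. Dnd1 and Elavl2 were far lower, at 3.50 ± 1.48 and 2.11 ± 1.92 CPM per kb in Bud31-vKO and at 6.58 ± 2.40 and 9.97 ± 7.76 CPM per kb in WT. Dazl was above Ddx4 in 6 of 6 libraries, Tex19.1 above Tex14 in 6 of 6 and Tex14 above Elavl2 in 6 of 6. The neighbours Ddx4 and Tex101 (Ddx4 higher in 4 of 6), Tex101 and Tex19.1 (3 of 6) and Elavl2 and Dnd1 (3 of 6) were not separated by their spread. Among 13177 protein-coding genes tested, the mean level per kb of Dazl exceeded that of 99.1% in Bud31-vKO and 99.6% in WT, and that of Ddx4 97.8% in Bud31-vKO and 98.9% in WT. The place of Elavl2 was 25.7% in Bud31-vKO and 64.7% in WT, and that of Dnd1 37.1% in Bud31-vKO and 54.3% in WT. The length used matters for Elavl2, with 8313 bases of exon in all and 4191 in its longest transcript: by longest transcript it averaged 4.18 CPM per kb in Bud31-vKO and 19.8 in WT, and Dnd1 4.10 in Bud31-vKO and 7.71 in WT. By that length Tex101 ranked above Ddx4 in the mean of all libraries, and 5 of 7 ranks stayed. By group, Tex101 averaged 122 CPM per kb and Ddx4 124 in Bud31-vKO, against 228 and 219 in WT.

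Shares within a library do not depend on its scaling, and they overlapped between the genotypes for each of the 7 genes. Dazl held 45.4%, 38.2% and 42.7% of the summed level per kb in Bud31-vKO libraries 1 to 3, against 43.1%, 39.6% and 30.5% in WT libraries 1 to 3. Ddx4 held 15.2%, 26.0% and 18.7% in Bud31-vKO libraries 1 to 3, against 17.0%, 27.1% and 26.1% in WT libraries 1 to 3. The ratio of Dazl to Ddx4 in reads was 3.79, 1.87 and 2.89 in Bud31-vKO libraries 1 to 3 and 3.21, 1.86 and 1.48 in WT libraries 1 to 3. Both genotypes thus had libraries with nearly equal ratios, Bud31-vKO library 2 and WT library 2. Tex14 held 7.99% in Bud31-vKO library 3, where the other 5 libraries lay between 2.23% and 5.40%.

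**Figure D3:**
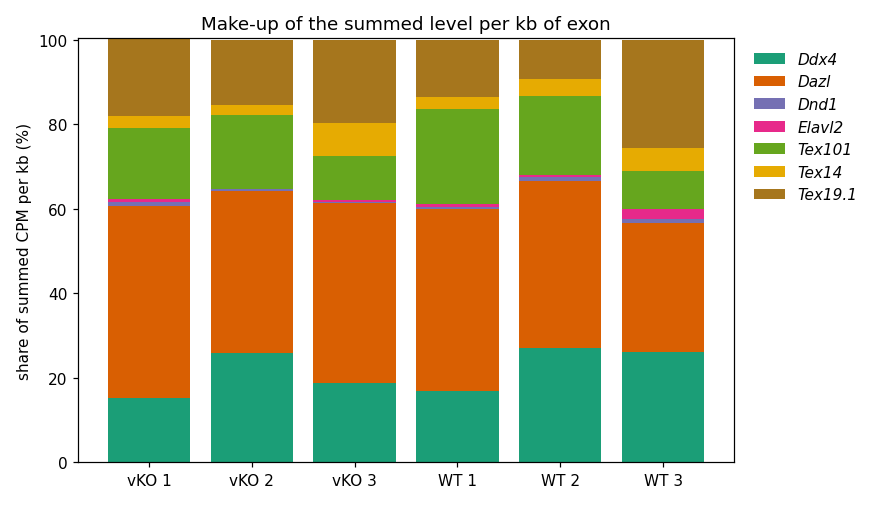
Share of each gene, in percent, in the summed CPM per kb of exon of the 7 genes, by library, with Bud31-vKO libraries (vKO) on the left and WT libraries on the right. Dazl is the largest share in every library, between 30.5% and 45.4%.

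Other germ cell genes also had lower summed levels in every Bud31-vKO library. The list held 8 markers (Mael, Dmrt1, Gcna, Stk31, Hormad1, Slc25a31, Sycp3 and Rpl10l), of which 7 were matched and tested; 7 of 7 lay below 0 on the log2 scale, their median was -0.39, and 0 were called. Their sum was 1130, 1240 and 1240 CPM in Bud31-vKO libraries 1 to 3, against 2140, 2100 and 2240 CPM in WT libraries 1 to 3. Slc25a31 and Mael make up most of it, with Mael averaging 156 CPM in Bud31-vKO and 493 CPM in WT. Hormad1 (-0.28), Sycp3 (-0.24) and Rpl10l (-0.11) overlapped between the genotypes. The 7 RNA-binding and TEX genes divided by the sum of these markers gave 1.40, 1.53 and 1.70 in Bud31-vKO libraries 1 to 3 and 1.54, 1.44 and 1.07 in WT libraries 1 to 3. These ratios overlapped between the genotypes. The transporter gene Slc25a31 averaged 610 CPM in Bud31-vKO (609 to 610) and 1010 CPM in WT (901 to 1120), and the transcription factor gene Dmrt1 72.4 ± 29.8 CPM in Bud31-vKO and 191 ± 69.8 CPM in WT (SD, n = 3 each), both with no overlap and an adjusted p of 0.9997 by edgeR. Markers of undifferentiated spermatogonia summed to 914 to 1320 CPM in Bud31-vKO and 1500 to 1710 CPM in WT, with 12 of 17 tested genes below 0 and a median log2 fold change of -0.31. The smallest p there belonged to Etv5, a transcription factor of self-renewal, at 80.2 ± 54.5 CPM in Bud31-vKO and 242 ± 92.9 CPM in WT (SD, n = 3 each; adjusted p = 0.9997 by edgeR). Sall4 averaged 250 ± 57.2 CPM in Bud31-vKO and 380 ± 81.2 CPM in WT, and Zbtb16 42.9 ± 27.1 CPM in Bud31-vKO and 117 ± 119 CPM in WT (SD, n = 3 each). These 3 genes had the smallest unadjusted edgeR p of the list. The 5 tested genes above 0 were Bcl6b (0.80), Lhx1 (0.76), Foxo1 (0.30), Thy1 (0.30) and Cdh1 (0.16). In 1 of the 17 every Bud31-vKO library lay below every WT library, beside 6.39% of all tested genes.

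Markers of somatic cells varied widely between libraries. On the log2 scale 9 of 10 tested Sertoli markers were above 0, with a median of 1.28. Above 0 also were 3 of 3 Leydig, 3 of 3 endothelial, 3 of 3 erythroid and 4 of 5 lymphocyte markers. Some of these signs rest on 1 Bud31-vKO library. In Bud31-vKO libraries 1 to 3 Hba-a1 measured 0.292, 0 and 124 CPM and Cyp11a1 0, 0 and 7.02 CPM. Below 0 were 4 of 5 stromal and 2 of 3 myoid markers, and macrophage markers split with 2 below and 2 above. Beside them 48.9% of all genes tested were below 0, and 0 of these markers were called. The 12 Sertoli cell markers, all with reads in both groups, summed to 783, 103 and 257 CPM in Bud31-vKO libraries 1 to 3 and 289, 126 and 253 CPM in WT libraries 1 to 3. Bud31-vKO library 1, the highest for Sertoli markers, was the lowest for the sum of the 7 genes, and without it their median log2 fold change was -0.56. Leaving out any 1 other library gave medians of -0.83 to -0.60. Bud31-vKO library 2, the lowest for Sertoli markers, had 1910 CPM for the 7 genes, below every WT library. The 5 lymphocyte markers summed to 332 CPM in Bud31-vKO library 2, against 56.3 to 58.2 CPM in the other Bud31-vKO libraries and 8.68 to 85.2 CPM in WT. Nearly all of that 332 CPM was Ptprc, at 328 CPM. In the same library Nkg7 had 3.92 CPM, and Cd3e, Cd3d and Cd2 had no read. The 5 stromal markers were highest in WT library 3, at 17400 CPM, the library in which Dazl and Tex101 were lowest and Elavl2, Tex14 and Tex19.1 highest among WT. Leydig cell markers summed to 30.1 to 67.6 CPM in Bud31-vKO and 19.7 to 27.6 CPM in WT; of the 6, Hsd3b1 had no read in Bud31-vKO and Cyp17a1 and Insl3 had none in WT. Peritubular myoid markers summed to 60.2 to 246 CPM in Bud31-vKO and 77.1 to 609 CPM in WT, and endothelial markers to 44.1 to 158 CPM in Bud31-vKO and 0.116 to 107 CPM in WT. Macrophage markers summed to 13.3 to 121 CPM in Bud31-vKO and 12.1 to 191 CPM in WT, and erythroid markers to 1.07 to 212 CPM in Bud31-vKO and 8.90 to 73.5 CPM in WT. The part of these cell types in the differences of the 7 genes was not tested.

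**Figure D4:**
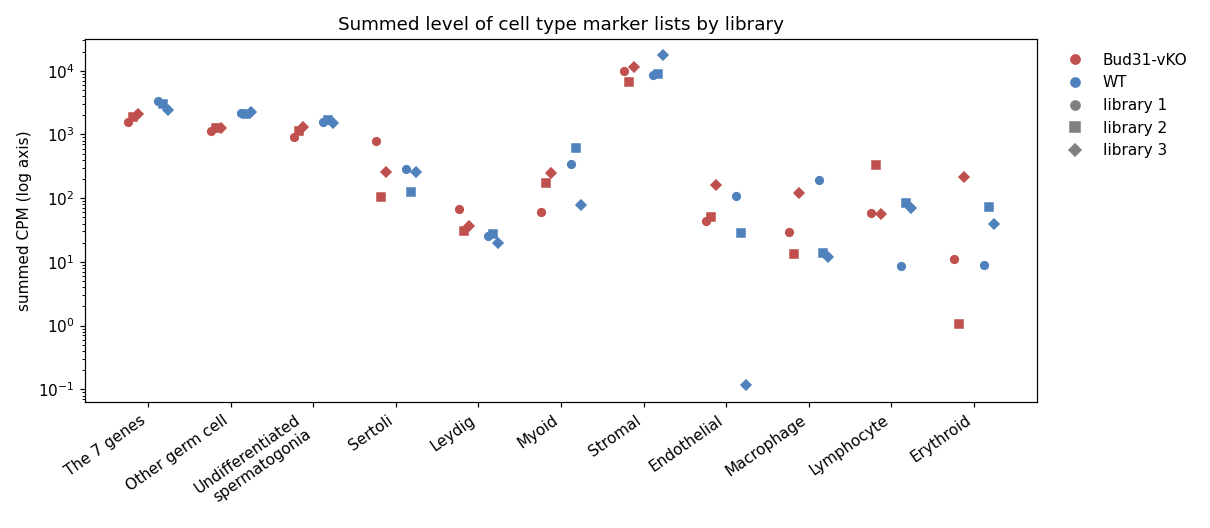
Summed CPM (log axis) of the 7 genes and of each marker list by library, with Bud31-vKO libraries (red) left of WT libraries (blue) and the library number by symbol. The 7 genes, the other germ cell markers and the undifferentiated spermatogonial markers separate by genotype, and the somatic lists overlap apart from the Leydig markers, whose sums are all under 100 CPM.

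Partners of the RNA-binding proteins were taken by their known roles. Around DDX4, 20 genes of the germ granule and the piRNA pathway were tested: 17 were below 0 and 3 above, with a median log2 fold change of -0.54, and 0 were called in either direction. Mael, a germ granule protein of transposon silencing that is also among the other germ cell markers, had 107, 185 and 176 CPM in Bud31-vKO libraries 1 to 3, against 370, 428 and 680 CPM in WT libraries 1 to 3, with no overlap. Its unadjusted p of 0.00207 by edgeR was the smallest of the list, whose adjusted p was 0.9997 for every gene. Tdrd12, a Tudor protein, averaged 17.1 ± 8.22 CPM in Bud31-vKO and 56.4 ± 26.6 CPM in WT, and Tdrkh, a Tudor protein of mitochondria, 69.5 ± 34.9 CPM in Bud31-vKO and 171 ± 80.6 CPM in WT (SD, n = 3 each). The 3 genes above 0 were Piwil2 (0.18), Piwil4 (0.32) and Tdrd6 (1.97). In 6 of the 20 genes every Bud31-vKO library lay below every WT library, where the background is 6.39%. Among these 6, Henmt1 and Rnf17 had no read in Bud31-vKO library 2.

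Partners and reported targets of DAZL gave 7 of 9 tested genes below 0, with a median of -0.23 and 0 called. Sdad1, reported as a DAZL target in mouse, averaged 99.2 ± 18.4 CPM in Bud31-vKO and 162 ± 28.7 CPM in WT (SD, n = 3 each). Pum2, an RNA-binding partner, averaged 212 ± 53.4 CPM in Bud31-vKO and 161 ± 42.0 CPM in WT, and the DAZL relative Boll 22.3 ± 9.66 CPM in Bud31-vKO and 36.1 ± 11.2 CPM in WT (SD, n = 3 each). Around DND1, 16 genes of NANOS proteins, Pumilio proteins, deadenylation and decapping had a median of 0.05, with 7 below 0, 9 above and 0 called. Nanos2, the partner of DND1, had 1 read in WT library 1 and none in the other 5 libraries. Cnot9, a subunit of the deadenylase, averaged 184 ± 34.1 CPM in Bud31-vKO and 282 ± 54.3 CPM in WT (SD, n = 3 each). Its catalytic subunit gene Cnot8 measured 187, 260 and 116 CPM in Bud31-vKO libraries 1 to 3, against 125, 135 and 96.7 CPM in WT libraries 1 to 3, and another, Cnot6l, 96.8, 39.2 and 62.1 CPM in Bud31-vKO, against 92.5, 89.3 and 153 CPM in WT. Of the paralogs of Elavl2, the widely expressed Elavl1 measured 144, 80.3 and 106 CPM in Bud31-vKO libraries 1 to 3, against 207, 141 and 230 CPM in WT libraries 1 to 3, and Elavl4 stayed under 10 CPM in every library.

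Partners of the TEX proteins showed no common direction. For TEX14, 13 bridge and cytokinesis genes had a median log2 fold change of 0.03, with 6 below 0, 7 above and 0 called. Anln, which encodes the ring protein anillin, averaged 35.1 ± 18.9 CPM in Bud31-vKO and 115 ± 26.3 CPM in WT with no overlap (SD, n = 3 each; unadjusted p = 0.0153 and adjusted p = 0.9997 by edgeR). Cep55, the abscission protein that TEX14 binds, averaged 47.3 ± 34.2 CPM in Bud31-vKO and 107 ± 50.3 CPM in WT, and Cd2ap 189 ± 84.6 CPM in Bud31-vKO and 90.9 ± 62.2 CPM in WT (SD, n = 3 each). For TEX101, 4 of 12 genes of sperm surface proteins and their chaperones could be tested, with a median of 0.97 and 0 called; the chaperone gene Clgn ran from 10.4 to 104 CPM in Bud31-vKO and from 0 to 35.1 CPM in WT. Calr3 averaged 5.76 ± 8.13 CPM in Bud31-vKO and 1.93 ± 2.46 CPM in WT, and Ace 6.91 ± 4.11 CPM in Bud31-vKO and 10.1 ± 1.10 CPM in WT (SD, n = 3 each). For TEX19.1, the 5 genes of its paralog, ubiquitin ligases and their conjugating enzymes had a median of -0.11. Ubr2, which TEX19.1 binds, measured 160, 90.7 and 127 CPM in Bud31-vKO libraries 1 to 3, against 103, 73.5 and 17.7 CPM in WT libraries 1 to 3, and Ubr1 averaged 41.2 ± 50.4 CPM in Bud31-vKO and 20.7 ± 19.3 CPM in WT (SD, n = 3 each).

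The symbol Tex followed by a number names 30 further genes in the table, which share testis expression in name and not a protein family. Of these, 7 had no read in any library and 11 were tested, with 10 below 0, a median log2 fold change of -0.51 and 0 called. Tex11 and Tex15, both needed in male meiosis, averaged 51.1 ± 14.3 and 182 ± 142 CPM in Bud31-vKO and 88.4 ± 19.6 and 308 ± 92.6 CPM in WT (SD, n = 3 each). Tex10 averaged 450 ± 192 CPM in Bud31-vKO and 627 ± 116 CPM in WT, and Tex16, at low counts, 2.51 ± 4.23 CPM in Bud31-vKO and 8.68 ± 6.80 CPM in WT (SD, n = 3 each). In 2 of the 11, Tex11 and Tex264, every Bud31-vKO library lay below every WT library, beside 6.39% of all tested genes, and Tex264 was named after its values were seen.

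Chromatin regulators known from the control of germ line promoters, namely the E2F6 complex, DNA and histone methylation, and the DNA demethylation enzymes Tet1 (0.39) and Tet2 (0.85), gave 13 of 19 tested genes below 0, with a median log2 fold change of -0.44 and 0 called. Setdb1, a histone methyltransferase, measured 88.0, 61.6 and 137 CPM in Bud31-vKO libraries 1 to 3, against 169, 235 and 219 CPM in WT libraries 1 to 3 (unadjusted p = 0.0211 and adjusted p = 0.9997 by edgeR). Tfdp1, a dimer partner of E2F proteins, averaged 147 ± 39.9 CPM in Bud31-vKO and 257 ± 88.9 CPM in WT, and the DNA methyltransferase gene Dnmt3b 31.1 ± 14.7 CPM in Bud31-vKO and 80.3 ± 56.7 CPM in WT (SD, n = 3 each).

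**Figure D5:**
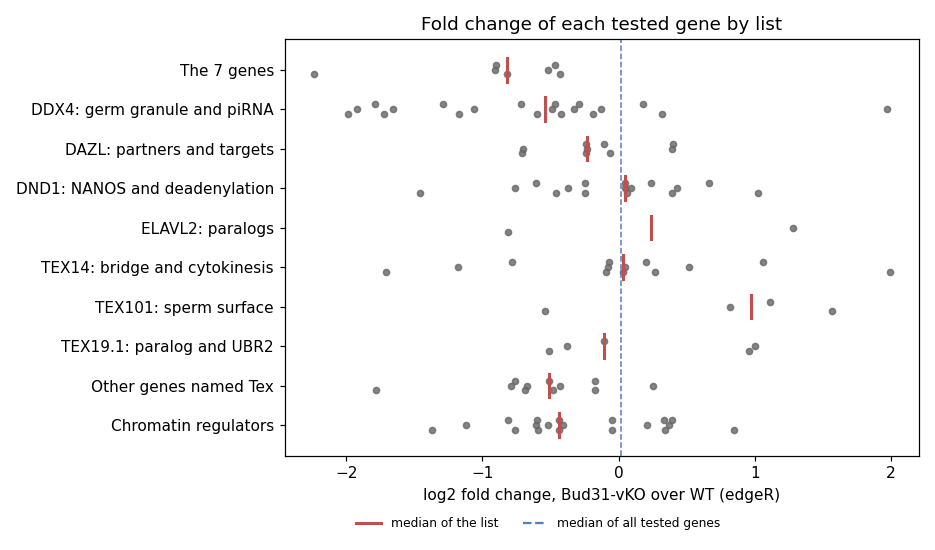
Log2 fold change of each tested gene (Bud31-vKO over WT, edgeR) by list, with the median of each list in red and the median of all 15240 tested genes, 0.02, as a dashed blue line. The medians of the 7 genes (-0.82), the germ granule genes (-0.54) and the other Tex genes (-0.51) lie left of it, and those of the bridge (0.03) and deadenylation lists (0.05) close to it.

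Genes with the most similar course over the 6 libraries were sought by the root mean square difference of log2 CPM after centring each gene, among 9753 protein-coding genes that averaged 10 CPM or more. Within the 7 genes, Dazl and Tex101 were nearest to each other, at 0.39, and Elavl2 was at least 2.88 from every other one. Nearest to Ddx4 were Ctu2 (0.13) and Trmt5 (0.14), to Dazl Rnf115 (0.13) and Arpc1a (0.14), and to Tex101 Ankzf1 (0.22) and Alg2 (0.23). Dnd1 was nearest to Ddx1 (0.11) and Tbc1d8 (0.20), Tex14 to Sp2 (0.12) and Dcaf4 (0.14), and Tex19.1 to Flna (0.11) and Eif4ebp2 (0.12). Elavl2 was nearest to Ccne1 (0.32) and Rimklb (0.33), both of which also had 0 CPM in Bud31-vKO library 2 and their highest level, 231 CPM for Ccne1 and 199 CPM for Rimklb, in WT library 3. These distances describe 6 libraries and are given with no test.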

How the data were processed

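RNA of sorted mouse testis cells was measured by Smart-Seq2 in 3 Bud31-vKO and 3 WT libraries. The authors deposited raw read counts per Ensembl gene, seen as whole numbers with unequal totals. The submitters' processing notes name bcl2fastq and mm10. Aligner, counter, annotation and strand setting: not given in the sources used here. Symbols, exon lengths and coordinates were taken from GENCODE M21 (GRCm38, which is mm10) for 51719 of 51912 identifiers (99.6%), and promoter windows from RefSeq (GRCm38.p6).

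In R 4.3.3 with edgeR 4.0.16, filterByExpr (count of 10, total of 15) kept 15240 genes, which were TMM-scaled and tested by the quasi-likelihood F test without covariates. Benjamini-Hochberg adjustment ran over all of them, at 5%. The 95% intervals of fold changes use the degrees of freedom of the fit, and 3 reads were the limit for a count of 0. The naming rule took the 7 genes, Bud31, Thy1, Kit, Tex19.2, the 3 tested genes of each partner list (5 of the other Tex genes) with the smallest unadjusted p, and the 2 nearest genes. From the other germ cell markers and the undifferentiated spermatogonial markers, the 3 with the smallest unadjusted p were likewise taken. The 7 genes and all lists were chosen with earlier results of these data known, so list counts are descriptions without a test. Alternatives were other scalings and filters, DESeq2 1.42.0, limma-voom (limma 3.58.1), a replicate block, libraries left out, and leaving out mitochondrial, haemoglobin and rRNA genes. The steps were tested on simulated data. In the main fit the common coefficient of variation between libraries, beyond counting error, was 119%. A gene that was not called was therefore not shown to be unchanged.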

Additional observations from a re-analysis of the deposited data

How the results depend on the processing

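The 7 log2 fold changes were below 0 in each of 16 alternatives planned for them, and 0 of the 7 passed the threshold in any. Leaving out 1 library at a time gave -1.10 to -0.56 for Ddx4, -0.74 to -0.29 for Dazl, -1.26 to -0.67 for Dnd1, -2.95 to -1.39 for Elavl2, -1.24 to -0.50 for Tex101, -1.40 to -0.15 for Tex14 and -0.69 to -0.12 for Tex19.1, and 2805 to 4347 genes without overlap, beside 1700 with all libraries, since fewer libraries overlap less often. Over Bud31-vKO libraries 1 and 3 and WT libraries 1 and 2, 6759 genes did not overlap, and the log2 fold change was -0.08 for Tex14, -0.08 for Tex19.1, -1.45 for Tex101 and -0.81 for Elavl2. With no filter edgeR called 7 genes, and DESeq2 called 47, with Ddx4, Dazl, Dnd1, Elavl2, Tex101, Tex14 and Tex19.1 in neither set; limma-voom gave -4.59 for Elavl2. The sample titles number the libraries and do not say whether equal numbers form pairs. Deviations of same-numbered libraries correlated at 0.19, 0.04 and -0.08, and 3 libraries a group are too few to settle it. With a replicate block 0 genes were called, Elavl2 had -3.49 and Tex14 -0.77. Scaling to the other germ cell genes, chosen after seeing the data, moved the median of all genes to 0.87, with 18.3% of them below 0, and left 3417 genes without overlap. On that scale the log2 fold change was 0 for Ddx4, 0.31 for Dazl, 0.35 for Tex14 and 0.42 for Tex19.1, the median of the 7 was 0, with 3 below 0, and their sum averaged 2490 in Bud31-vKO and 2180 in WT. Relative to that median of all genes they were -0.87 for Ddx4, -0.56 for Dazl, -0.52 for Tex14 and -0.45 for Tex19.1. Subtracting the median takes off most of the shift, so these values come back near the main fit and are no separate check. The counting error of reads alone is small beside the spread between libraries for Dnd1 and Elavl2, and 3 libraries a group limit every gene.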

Other observations

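Reads of some testis genes were spread unevenly over the libraries. Tex35 had 339 reads in Bud31-vKO library 2, against 4 in each of the other Bud31-vKO libraries and 0 to 13 in WT, and Tex29 had 176 reads in Bud31-vKO library 2, against at most 1 in any other library. Tex21 had 173, 86 and 0 reads in WT libraries 1 to 3 and at most 1 read in a Bud31-vKO library. These 3 genes, chosen after their values were seen, did not pass the filter on low counts. Henmt1 and Rnf17, of the germ granule list and likewise chosen after their values were seen, had no read in Bud31-vKO library 2, as Elavl2 did, while they measured 8.28 to 56.6 CPM in the other Bud31-vKO libraries and 26.3 to 168 CPM in WT.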
